A study of Homo sapiens with 12 samples.

Results

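The p53 feedback genes described here are MDM2, PPM1D, CCNG1, ZMAT3, PHLDA3, SESN1, TP53INP1 and RPS27L, 8 genes that p53 transcribes and whose products act back on p53 or restrain growth signals. They were chosen by name, with earlier results of these data known. Every probe that the array's annotation assigns to one of these symbols, or to an older alias of the same gene, was taken. This gave 11 probes of 12852 annotated ones, for 8 genes of 9922. ZMAT3 has 3 probes, TP53INP1 has 2 and each of the others has 1. All 8 genes met the rule for detection, a p under 0.01 on 3 or more arrays out of 12, which is partly built in, because the annotation lists only probes of the authors' own table. MDM2 was detected on 7 arrays (0 of 3 in untreated siCON cells, 2 of 3 in siCON cells with MMC, 2 of 3 in untreated siIPMK cells and 3 of 3 in siIPMK cells with MMC), and each of the other 10 probes on all 12.

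The study asked which RNAs differ in abundance in the cytoplasm when IPMK, the inositol polyphosphate multikinase, is depleted. All arrays hold RNA from Cal51, 1 human breast carcinoma line, from the fraction released by permeabilising the plasma membrane with digitonin. Cells received a control siRNA (siCON) or an siRNA against IPMK (siIPMK), and all were harvested 72 hours after transfection. With each siRNA some cells were left untreated, and others had mitomycin C (MMC) added for the final 24 hours, a compound that ties the strands of DNA together. This makes 4 groups of 3 arrays, numbered experiments 1 to 3. Nothing in the labels says that the numbered experiments were separate cultures, so the p-values measure the spread between these arrays. No nuclear or whole-cell RNA was used here, so a cytoplasmic level cannot be told apart into transcription, export and decay, and in such bulk samples fewer cells of a type and less RNA per cell cannot be told apart.

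In cells with damaged DNA the transcription factor p53 is stabilised and switches on genes that stop the cell cycle, repair DNA or kill the cell, and with them genes that damp the response. MDM2 is the ubiquitin ligase that marks p53 for destruction, and PPM1D, also called WIP1, is a phosphatase that removes activating phosphates from p53 and from the damage kinases. Sestrins link p53 to nutrient signalling by restraining mTORC1, and PHLDA3 competes with AKT for membrane lipids, so both lower growth signals.

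The start-site windows of these genes are shown because p53 acts through sites in DNA. RefSeq's table for GRCh38.p14 holds windows of 300 bases, from 250 before to 50 after an annotated start, for 6 of the 8 genes and 13 starts. PHLDA3 and TP53INP1 were not matched. Both strands were searched for the p53 consensus site of 20 bases without a spacer (the motif reads the same on both strands), and matches with at most 3 mismatches lay in 4 of the 13 windows, from 3 genes. Over all 35116 windows 5.20% hold such a match, and 0.649% hold one with at most 2 mismatches. MDM2 has 2 neighbouring matches, at chr12:68808923-68808942 with 2 mismatches and at chr12:68808961-68808980 with 3. The same 2 matches lie in 2 overlapping windows of internal starts, chr12:68808767-68809066 and chr12:68808774-68809073, so 2 of the 4 windows repeat 1 region. SESN1 has 1 at chr6:109009018-109009037 and RPS27L has 1 at chr15:63157527-63157546, each with 3. These are the 3 genes with a match. In the windows of PPM1D and ZMAT3 the best match has 4 mismatches and in those of CCNG1 it has 6. For each of these 3 genes with a match 1 window is printed 5′ to 3′ on the strand of the gene, with the matches in capitals. The printed windows are chr12:68808767-68809066 on the plus strand, chr6:109008939-109009238 on the minus strand and chr15:63157428-63157727 on the minus strand. A match is a description of the letters and shows no binding.
MDM2: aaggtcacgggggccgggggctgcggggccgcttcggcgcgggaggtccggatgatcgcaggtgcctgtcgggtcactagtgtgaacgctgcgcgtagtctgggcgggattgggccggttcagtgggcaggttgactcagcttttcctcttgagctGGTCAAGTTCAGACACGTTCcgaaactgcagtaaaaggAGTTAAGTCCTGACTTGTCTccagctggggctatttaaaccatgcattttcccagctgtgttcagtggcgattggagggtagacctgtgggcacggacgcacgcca
SESN1: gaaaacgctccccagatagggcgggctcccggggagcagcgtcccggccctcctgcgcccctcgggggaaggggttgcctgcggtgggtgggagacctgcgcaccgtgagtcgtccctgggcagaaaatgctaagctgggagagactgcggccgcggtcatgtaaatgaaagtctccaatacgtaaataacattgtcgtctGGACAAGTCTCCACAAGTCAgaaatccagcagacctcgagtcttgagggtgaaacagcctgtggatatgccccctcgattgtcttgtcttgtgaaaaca
RPS27L: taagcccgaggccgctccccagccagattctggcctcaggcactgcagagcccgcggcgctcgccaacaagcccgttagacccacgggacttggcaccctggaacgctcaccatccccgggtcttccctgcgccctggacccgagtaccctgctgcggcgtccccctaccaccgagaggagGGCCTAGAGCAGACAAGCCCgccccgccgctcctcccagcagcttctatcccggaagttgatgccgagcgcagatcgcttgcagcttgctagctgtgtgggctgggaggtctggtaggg

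Between 12122 and 13458 probes were detected per array. On the first principal component (67.5% of the variance) both siIPMK arrays of experiment 1 lay between the siCON arrays and the other siIPMK arrays. Of 5 annotated epithelial markers all 5 were detected on at least 3 arrays, and of 4 annotated fibroblast, endothelial and leukocyte markers 2 were, COL1A2 on all 12 and PECAM1 on 11. No probe used here carried the name IPMK, so the depletion itself is not reported. A probe's signal is given as a normalised log2 value, which is comparable between arrays for 1 probe and not between probes. Changes are log2 differences with the standard error of limma's fit (n = 3 arrays per group), and each adjusted p is limma's with Benjamini-Hochberg adjustment over all 9409 genes. A gene is said to have risen or fallen where that adjusted p was under 0.05.

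In cells with control siRNA, 7 of the 8 feedback genes rose with MMC and none fell. Over all genes 1.96% rose in that comparison. MDM2 met the detection rule only through groups other than untreated siCON cells, so its place among the rises is partly built in. With detection required on all 12 arrays, 6 of 7 feedback genes rose, where 130 of 7851 genes passed in either direction. The median change of the 8 was 1.23, against -0.02 over all genes, and the largest was that of PHLDA3, at 3.62-fold. The eighth gene, CCNG1, was higher in each experiment and passed once arrays of the same experiment were compared with each other. Such pairs apply here because same-numbered arrays of 1 siRNA deviated together from their group means (correlations across genes of 0.193 to 0.704). With a term for each siRNA and experiment, called the paired fit below, all 8 rose, where 6.17% of all genes did.

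**Figure D1:**
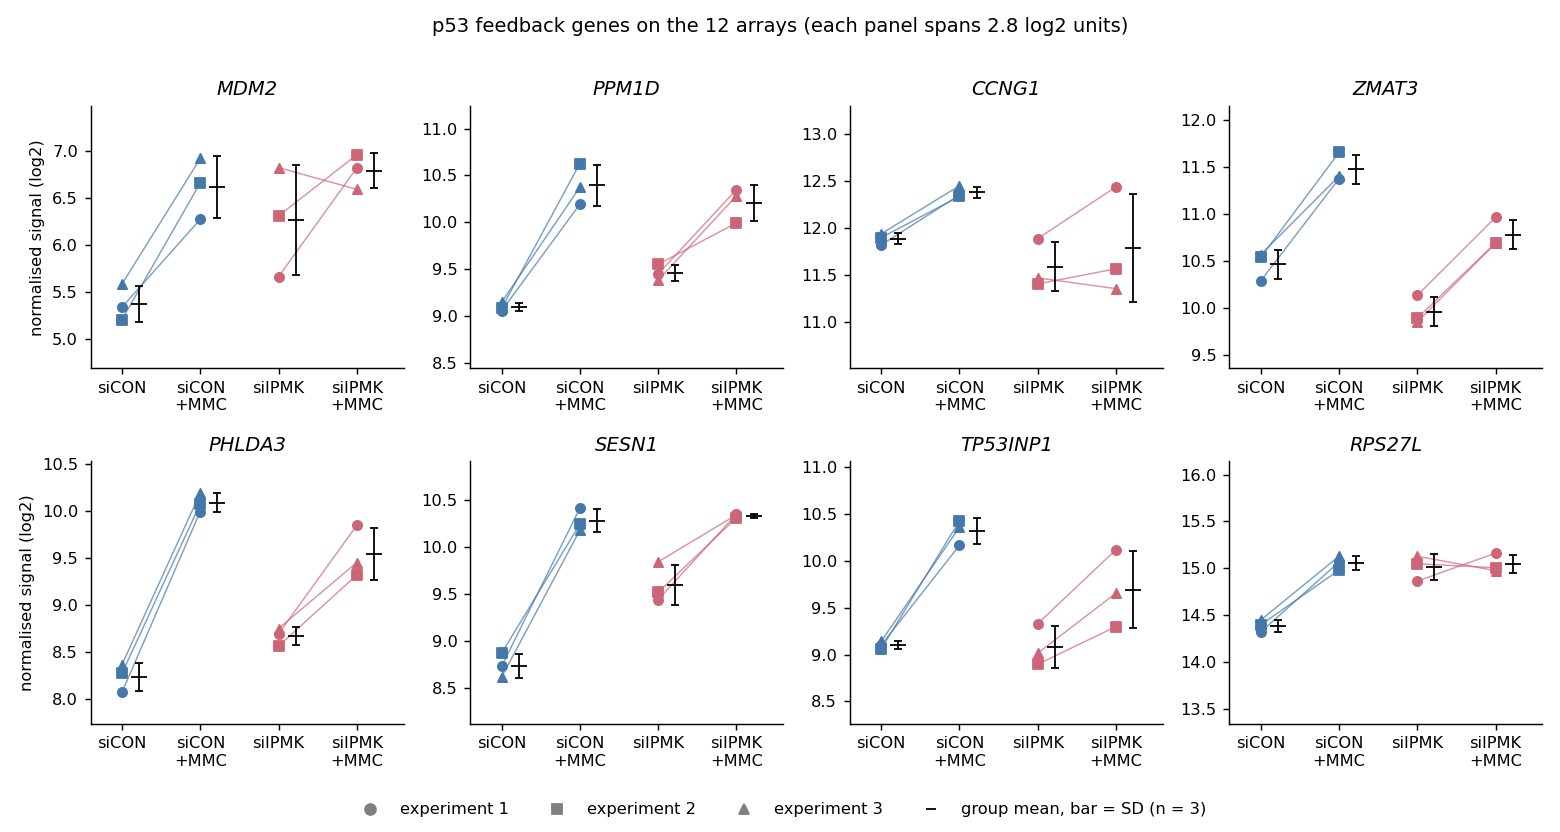
Normalised log2 signal of the 8 genes (1 probe each) on the 12 arrays, with lines joining untreated and MMC arrays of the same siRNA and experiment; black bars give the mean and SD of 3 arrays. The siCON arrays are higher with MMC in every panel, by 1.86 for PHLDA3 and 0.67 for RPS27L, and the siIPMK arrays of RPS27L lie between 14.86 and 15.16.

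MDM2, which closes the loop by degrading p53, read 5.34, 5.20 and 5.58 in untreated siCON cells, where it was not detected, and 6.27, 6.66 and 6.92 with MMC. The MMC arrays were all above the untreated ones. The change was 1.24 ± 0.27 (adjusted p = 0.0220; 5.53e-04 in the paired fit), and because the untreated level lies in the background, the rise can only be called at least 1.05-fold. Its size turns on the background treatment, at 0.62 with no correction and 0.38 in the authors' values (adjusted p = 0.0838), and the adjusted p rose to between 0.0819 and 0.131 without untreated experiment 1 or 2 or MMC experiment 2 or 3.

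PPM1D, the WIP1 phosphatase, read 9.06, 9.08 and 9.15 in untreated siCON cells and 10.19, 10.63 and 10.37 with MMC. The groups lay more than 1 unit apart, a change of 1.30 ± 0.13, or 2.47-fold (adjusted p = 4.36e-05). CCNG1, cyclin G1, which recruits the phosphatase PP2A to MDM2, read 11.82, 11.90 and 11.94, and 12.35, 12.34 and 12.45 with MMC. Its groups did not overlap either, but the change was smaller, 0.50 ± 0.21 (adjusted p = 0.379), and it passed in the paired fit (0.50 ± 0.09, adjusted p = 8.02e-04), without the siIPMK MMC array of experiment 1 (adjusted p = 0.0302) and with only the siCON arrays in the fit (adjusted p = 0.00301).

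ZMAT3, also called WIG1, an RNA-binding zinc finger protein, read 10.29, 10.54 and 10.57 untreated and 11.38, 11.66 and 11.41 with MMC at the probe used for the gene. It rose by 1.01 ± 0.13 (adjusted p = 2.90e-04). The other probes of the gene are taken up further on, since 1 of them moved the other way.

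PHLDA3, the inhibitor of AKT, read 8.07, 8.27 and 8.36 in untreated siCON cells and 9.997, 10.08 and 10.20 with MMC. The groups were far apart, with a change of 1.86 ± 0.14 (adjusted p = 4.23e-06). SESN1, the p53-responsive sestrin, read 8.72, 8.87 and 8.61 untreated and 10.41, 10.24 and 10.18 with MMC. The groups again did not overlap, at 1.54 ± 0.12 or 2.92-fold (adjusted p = 5.49e-06).

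TP53INP1, a stress protein that promotes autophagy and p53 activity, read 9.10, 9.06 and 9.14 untreated and 10.16, 10.43 and 10.36 with MMC. It rose by 1.22 ± 0.18 (adjusted p = 0.00104). RPS27L, a ribosomal protein S27 relative, read 14.32, 14.40 and 14.45 untreated and 15.07, 14.98 and 15.13 with MMC. It had the smallest change of the 7, 0.67 ± 0.08 or 1.59-fold (adjusted p = 1.55e-04), and its signal lay between the 99.7 and 99.9 percentile of an array's probes, where an effect of signal saturation was not tested.

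The next question was how depletion of IPMK alone moved the same genes. In untreated cells 5 of the 8 were higher with siIPMK (MDM2, PPM1D, PHLDA3, SESN1 and RPS27L), 1 was lower (ZMAT3), and CCNG1 and TP53INP1 did not pass. The place of MDM2 among the 5 is again partly built in by the detection rule. With detection required on all 12 arrays, 4 of 7 were higher and 1 was lower, where 3223 of 7851 genes passed in either direction. Depletion moved many genes, with 20.4% of all genes higher and 19.9% lower. The median of the 8 was 0.40, against 0.00 over all genes. Median scaling in place of quantile normalization moves the median of all genes from 0.00 to 0.13.

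SESN1 read 9.44, 9.52 and 9.84 in untreated siIPMK cells, all above the siCON arrays and below those with MMC, a rise of 0.86 ± 0.12 (adjusted p = 1.64e-04). RPS27L read 14.86, 15.05 and 15.13, which overlaps the siCON arrays with MMC, a rise of 0.63 ± 0.08 or 1.54-fold (adjusted p = 7.21e-05). These were the 2 rises that passed without any 1 array and in each alternative run.

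PHLDA3 read 8.69, 8.56 and 8.75, above the siCON arrays by 0.43 ± 0.14 (adjusted p = 0.0248). PPM1D read 9.45, 9.55 and 9.38, higher by 0.37 ± 0.13 (adjusted p = 0.0370). Both shifts were well under the MMC shift in control cells, and neither group overlapped its untreated control. The PPM1D rise did not pass without any 1 of the 6 arrays (adjusted p = 0.0517 to 0.126), and that of PHLDA3 did not pass without siCON experiment 1 or 2 or siIPMK experiment 3 (adjusted p = 0.0949, 0.0523 and 0.0895).

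MDM2 read 5.66, 6.31 and 6.83, a wide spread with all 3 above the undetected siCON arrays. The change was 0.89 ± 0.27 (adjusted p = 0.0167). No fold is given, because the siCON level lies in the background. The siIPMK mean, 6.27, was itself under the mean of the lowest detected signals of the untreated siCON arrays. In the authors' values the change was 0.24 (adjusted p = 0.0664). It did not pass without siCON experiment 2 (0.0587), siIPMK experiment 2 (0.0530) or siIPMK experiment 3 (0.0987).

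ZMAT3 read 10.13, 9.89 and 9.85, below every siCON array, a fall of 0.51 ± 0.13 (adjusted p = 0.00654), or of 0.39 under median scaling (adjusted p = 0.0596). CCNG1 read 11.89, 11.41 and 11.47, where experiment 1 lay with the controls and experiments 2 and 3 below them (-0.30 ± 0.21, adjusted p = 0.270). The CCNG1 difference passed without the siIPMK MMC array of experiment 1 (-0.30, adjusted p = 0.0463) and without both siIPMK arrays of that experiment (-0.45, adjusted p = 6.43e-04). TP53INP1 read 9.33, 8.90 and 9.01, around the controls (-0.02 ± 0.18, adjusted p = 0.935).

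RNAs that stay in the nucleus moved with the siRNA and, in the paired fit, in part with MMC. All 3 measured ones, RPPH1, RN7SK and SNORD13, were higher with siIPMK without MMC, with a median change of 1.61, and with MMC, with a median of 1.29. Over all genes 20.4% were higher with siIPMK without MMC and 20.8% with it. With MMC in siCON cells 0 of the 3 passed without pairing, and 2 rose in the paired fit (RN7SK by 0.51 ± 0.12 and SNORD13 by 0.61 ± 0.14), with a median of 0.51. Of all genes 1.96% rose there without pairing and 6.17% in the paired fit. With MMC in siIPMK cells the median of the 3 was -0.22. There 0 passed without pairing and 1 rose in the paired fit, where 1.96% of all genes did. For the 3 nuclear RNAs the median difference of the MMC changes was -0.43, and 0 of them passed in either fit. Of the 5 epithelial markers 4 were higher with siIPMK in untreated cells (median 0.67) and 3 with MMC (median 0.50). With MMC in siCON cells KRT8 and KRT19 rose in the paired fit, where 6.17% of all genes did. The part of these RNAs and markers in the changes of the feedback genes was not tested.

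With MMC in both arms, 0 of the 8 feedback genes were higher with siIPMK and 4 were lower, namely CCNG1, ZMAT3, PHLDA3 and TP53INP1. Over all genes 20.8% were higher and 20.4% lower. The median of the 8 was -0.37, against 0.01 over all genes.

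ZMAT3 read 10.96, 10.69 and 10.69 in siIPMK cells with MMC, all below the siCON arrays with MMC, a fall of 0.70 ± 0.13 (adjusted p = 9.25e-04). PHLDA3 read 9.85, 9.32 and 9.45, likewise below them, a fall of 0.55 ± 0.14 (adjusted p = 0.00686). TP53INP1 read 10.12, 9.30 and 9.65, with experiment 1 just under the lowest siCON array, a fall of 0.63 ± 0.18 (adjusted p = 0.0112).

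CCNG1 read 12.44, 11.57 and 11.35. Here experiment 1 lay among the siCON arrays and the other experiments below them, so that the groups overlap, and the fall of 0.59 ± 0.21 (adjusted p = 0.0343) was 0.92 without siIPMK experiment 1 and 0.38 without experiment 3 (adjusted p = 0.171). It did not pass without siIPMK experiment 2 (0.129) or siCON experiment 1, 2 or 3 (0.0684, 0.0692 and 0.0942), and TP53INP1 did not pass without siIPMK experiment 2 (-0.43, adjusted p = 0.0649). With median scaling, which moves the median of all genes from 0.01 to 0.14, CCNG1 (adjusted p = 0.0641), PHLDA3 (0.0805) and TP53INP1 (0.0624) did not pass.

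The other 4 feedback genes did not pass between the siRNAs with MMC. MDM2 read 6.82, 6.96 and 6.59 (0.17 ± 0.27), PPM1D 10.35, 9.99 and 10.28 (-0.19 ± 0.13), SESN1 10.35, 10.31 and 10.34 (0.06 ± 0.12) and RPS27L 15.16, 15.01 and 14.97 (-0.01 ± 0.08). Their adjusted p values were 0.630, 0.255, 0.747 and 0.918, and their arrays overlapped those of siCON cells with MMC. With array weights PPM1D was lower (-0.36, adjusted p = 0.0139).

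**Figure D2:**
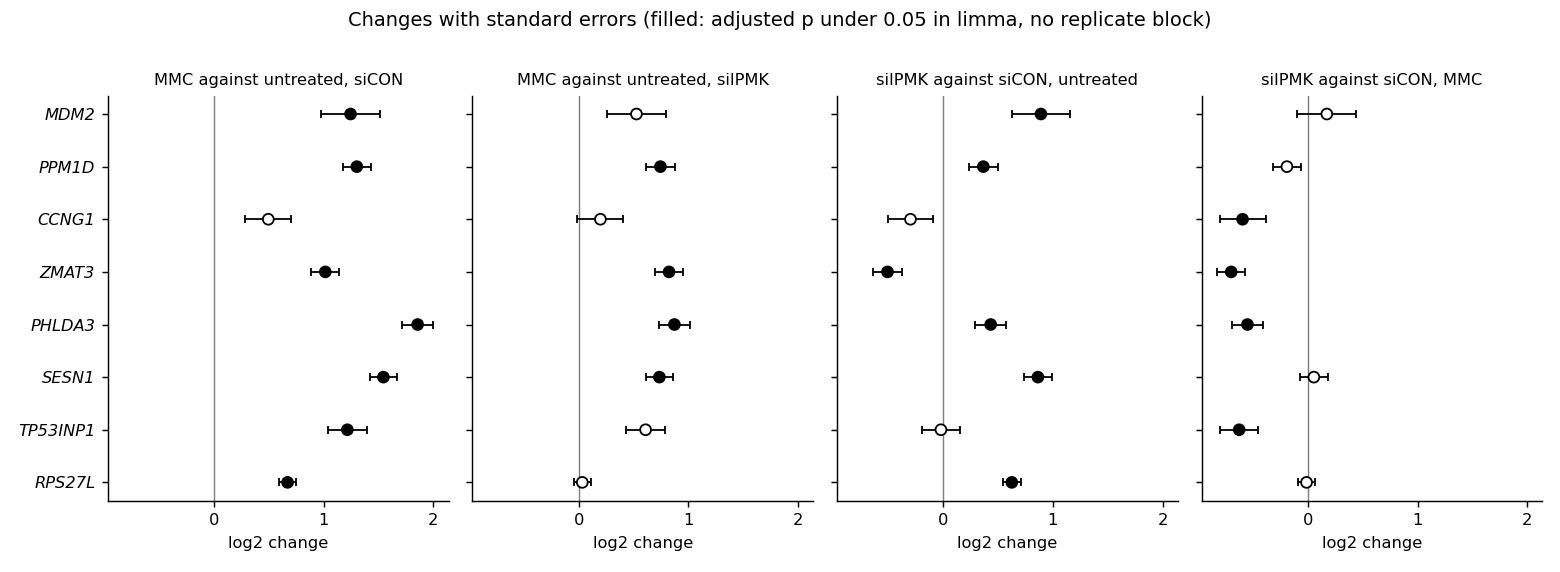
Log2 change of each gene in 4 comparisons, with bars for the standard error of limma's fit on 12 arrays; filled points passed at an adjusted p under 0.05. The first panel holds 7 filled points right of 0, and the last holds 4 filled points left of 0.

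The third question was what MMC did in siIPMK cells. There 4 of the 8 rose and none fell (PPM1D, ZMAT3 at the probe used for the gene, PHLDA3 and SESN1). Of all genes 0.351% rose. In the paired fit 5 of the 8 rose, TP53INP1 with them, where 1.96% of all genes did. The median of the 8 was 0.67, against 0.00 over all genes.

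PPM1D rose by 0.75 ± 0.13 (adjusted p = 0.0212; 5.87e-05 in the paired fit) and ZMAT3 by 0.82 ± 0.13 (0.0127; 1.17e-06). PHLDA3 rose by 0.87 ± 0.14 (0.0141; 6.25e-06) and SESN1 by 0.74 ± 0.12 (0.0181; 3.69e-05). For each of these the MMC arrays lay above the untreated siIPMK arrays without overlap. TP53INP1 differed by 0.61 ± 0.18 (adjusted p = 0.312), with overlap between the groups, and by 0.61 ± 0.10 in the paired fit (adjusted p = 4.19e-04).

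The unpaired calls in siIPMK cells rest on few arrays. With median scaling the adjusted p was 0.175 for PPM1D, 0.0639 for ZMAT3 and 0.100 for PHLDA3 and SESN1, and none of the 4 passed with only the siIPMK arrays in the fit. Of the 4, 0 passed without untreated experiment 2 (adjusted p = 0.0627 for PPM1D, 0.0586 for ZMAT3, 0.0685 for PHLDA3 and 0.0903 for SESN1). PPM1D and SESN1 did not pass without untreated experiment 1 (0.0834 and 0.0919) or MMC experiment 3 (0.110 and 0.0785). PPM1D and ZMAT3 did not pass without untreated experiment 3 (0.108 and 0.0612), PPM1D not without MMC experiment 1 (0.0530), and SESN1 not without MMC experiment 2 (0.0673).

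MDM2, CCNG1 and RPS27L did not pass in siIPMK cells in either fit, with changes of 0.53 ± 0.27 (adjusted p = 0.926), 0.20 ± 0.21 (0.995) and 0.03 ± 0.08 (0.995), and of 0.265, 0.314 and 0.890 for the adjusted p in the paired fit. Within experiments 1, 2 and 3 the MMC arrays of siIPMK cells differed from the untreated ones by 1.16, 0.65 and -0.23 for MDM2. The differences were 0.55, 0.16 and -0.12 for CCNG1 and 0.30, -0.04 and -0.15 for RPS27L. In all 3 genes experiment 1 gave the highest of the 3 values and experiment 3 the lowest and negative one.

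Whether MMC changed these genes by less in siIPMK than in siCON cells was tested as the difference of the MMC changes. The difference was negative for all 8 genes at the probe used for each, with a median of -0.62 against 0.00 over all genes, and the 2 MMC changes it is made of share no arrays. Without pairing 0 of the 8 passed, as did 0 of all 9409 genes (0% lower), where 327 genes had an unadjusted p under 0.05. PHLDA3 passed unpaired without the siIPMK MMC array of experiment 1 (adjusted p = 0.0321), and RPS27L without that array (0.0321) or the untreated one (0.0450). In the paired fit 4 of the 8 were lower, namely PHLDA3, SESN1, TP53INP1 and RPS27L, where 0.521% of all genes were.

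**Figure D3:**
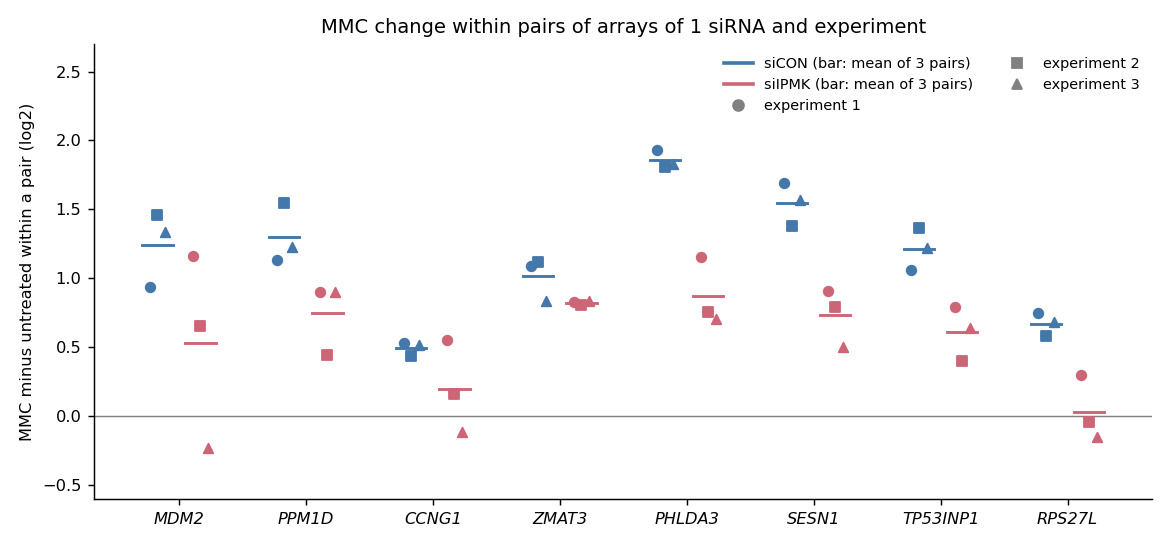
MMC minus untreated signal within each pair of arrays of 1 siRNA and experiment (log2), by gene; horizontal bars are means of 3 pairs. For PHLDA3, SESN1, RPS27L, TP53INP1 and PPM1D every siIPMK pair lies below every siCON pair, and for ZMAT3 the siRNAs meet near 0.84.

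PHLDA3 rose within pairs by 1.93, 1.81 and 1.83 with siCON and by 1.16, 0.76 and 0.70 with siIPMK. No siIPMK pair reached a siCON pair, and the difference was -0.98 ± 0.14 in the paired fit (adjusted p = 4.85e-04; -0.98 ± 0.20 and 0.275 without pairing). SESN1 rose by 1.69, 1.38 and 1.57 with siCON and by 0.91, 0.80 and 0.50 with siIPMK. Its pairs did not overlap either, at -0.81 ± 0.14 (adjusted p = 0.00210; 0.336 without pairing).

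RPS27L differed within pairs by 0.75, 0.58 and 0.68 with siCON, above the highest siIPMK pair at 0.30. The difference was -0.64 ± 0.11 (adjusted p = 0.00210; 0.121 without pairing). For SESN1, RPS27L and PHLDA3 the untreated siIPMK level was already raised, by 0.86, 0.63 and 0.43. The difference of the MMC changes equals the change between the siRNAs with MMC minus that without it. The raised untreated level is therefore a part of the difference and not a separate result. With and without MMC, siIPMK minus siCON was 0.06 and 0.86 for SESN1, -0.01 and 0.63 for RPS27L, and -0.55 and 0.43 for PHLDA3. The part of signal saturation for the bright RPS27L probe was not tested. With MMC no difference between the siRNAs was detectable for SESN1 and RPS27L, and PHLDA3 was lower with siIPMK, a call lost with median scaling (adjusted p = 0.0805).

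TP53INP1 rose by 1.06, 1.37 and 1.22 with siCON and by 0.79, 0.40 and 0.64 with siIPMK, without overlap, at -0.61 ± 0.14 (adjusted p = 0.0370; 0.999 without pairing). In the paired fit the other 3 genes of this group kept an adjusted p under 0.05 without any 1 pair, with median scaling and in the authors' values. TP53INP1 did not pass without siCON pair 1, 2 or 3 (0.0731, 0.210 and 0.173), without siIPMK pair 2 or 3 (0.215 and 0.0531) or with median scaling (0.172).

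PPM1D rose by 1.14, 1.54 and 1.23 with siCON and by 0.90, 0.44 and 0.90 with siIPMK, also without overlap, at -0.56 ± 0.15 (adjusted p = 0.0763 in the paired fit). For MDM2, CCNG1 and ZMAT3 the difference was -0.72 ± 0.32, -0.30 ± 0.13 and -0.19 ± 0.12, with adjusted p values of 0.400, 0.399 and 0.597 in the paired fit, and the pairs overlapped. Without both siIPMK arrays of experiment 1 the paired fit put 6 of the 8 under the threshold, PPM1D (-0.63, adjusted p = 0.0153) and CCNG1 (-0.47, adjusted p = 0.0226) in addition, while the number of all genes past it in either direction went from 60 to 148 of 9409. These misses do not show that the MMC changes were alike.

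**Figure D4:**
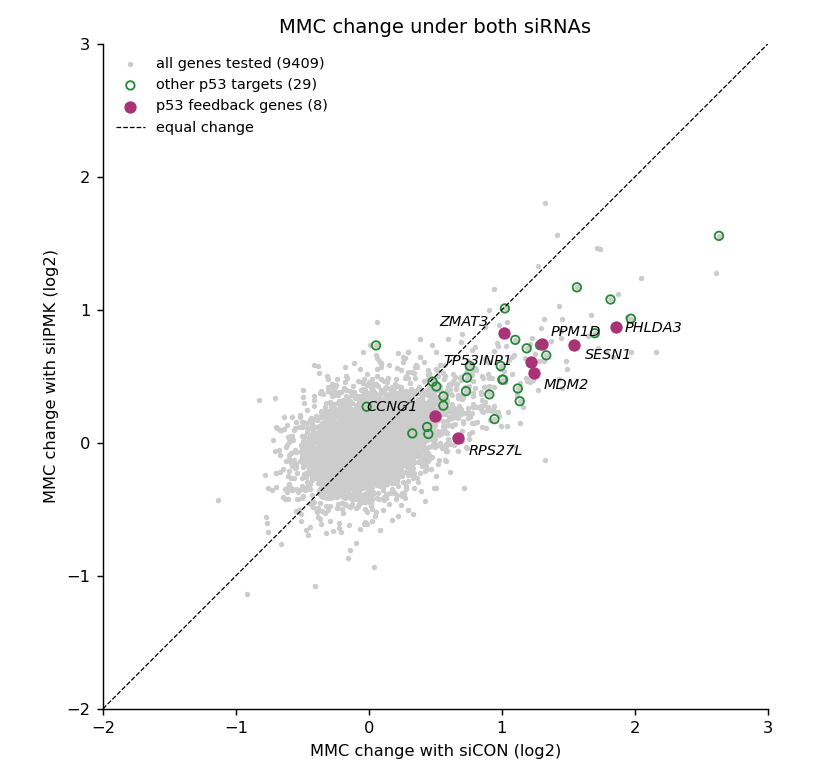
MMC change with siIPMK against MMC change with siCON (log2) for all 9409 genes tested, 29 other p53 targets and the 8 feedback genes; the dashed line marks equal change. All 8 feedback genes lie below the line, by 0.98 for PHLDA3 and 0.19 for ZMAT3.

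Set against untreated siCON cells, siIPMK cells with MMC had 6 of the 8 genes higher, where 23.1% of all genes were, and CCNG1 (-0.10 ± 0.21, adjusted p = 0.725) and ZMAT3 (0.32 ± 0.13, adjusted p = 0.0561) did not pass. MDM2 was at least 1.19-fold higher there (adjusted p = 8.12e-04) and SESN1 was 3.03-fold higher. The place of MDM2 among the 6 is partly built in by the detection rule. Untreated siIPMK cells set against siCON cells with MMC had 6 lower, where 19.7% of all genes were, and for MDM2 (-0.35 ± 0.27, adjusted p = 0.312) and RPS27L (-0.05 ± 0.08, adjusted p = 0.679) no difference was detectable. Both comparisons change siRNA and drug at once.

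The probes of ZMAT3 did not move together. In a fit of all 13830 kept probes, 2 of its 3 probes rose with MMC in siCON cells, where 1.68% of all probes did, by 1.01 at the probe used above and by 1.22 ± 0.14 at ILMN_1654262 (adjusted p = 1.04e-04). ILMN_1654262 read 9.72, 9.51 and 9.48 untreated and 10.78, 10.90 and 10.69 with MMC. ILMN_2361104 read 10.22, 10.51 and 10.33 untreated and 10.08, 10.01 and 9.90 with MMC, lower in each experiment.

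ILMN_2361104 changed by -0.36 ± 0.22 (adjusted p = 0.627), and by -0.36 ± 0.10 in the paired fit (adjusted p = 0.0330), where 3.50% of all probes fell. With MMC in siIPMK cells ILMN_2361104 changed by 0.06 ± 0.22 (adjusted p = 0.996) and ILMN_1654262 by 0.555 ± 0.14 (adjusted p = 0.168). In the paired fit ILMN_1654262 rose there (adjusted p = 6.45e-04), where 1.64% of all probes did. Averaging the 3 probes gives ZMAT3 an MMC change of 0.63 with siCON and 0.48 with siIPMK (adjusted p = 0.400). The probe sequences were not used here, so which transcripts each probe reads is not given.

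In untreated siIPMK cells ILMN_1654262 read 9.75, 9.39 and 9.45, around the controls (-0.04 ± 0.14, adjusted p = 0.831), while the other 2 ZMAT3 probes fell, by 0.51 and 0.68 (ILMN_2361104, adjusted p = 0.0222), where 19.2% of all probes did. With MMC in both arms ILMN_1654262 was lower by 0.70 ± 0.14 with siIPMK (adjusted p = 0.00131), as was the probe used above, where 20.3% of all probes were lower. ILMN_2361104 did not pass there (-0.27 ± 0.22, adjusted p = 0.337), and its groups overlapped. For ILMN_1654262 the MMC change itself was smaller with siIPMK, by 0.66 ± 0.13 in the paired fit (adjusted p = 0.0138), where 0.362% of all probes were lower. The probe used above gave -0.19 (adjusted p = 0.625), and ILMN_2361104 gave a value of the other sign, 0.41 ± 0.15 (adjusted p = 0.277). For ZMAT3 the sign of the difference therefore depends on the probe.

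**Figure D5:**
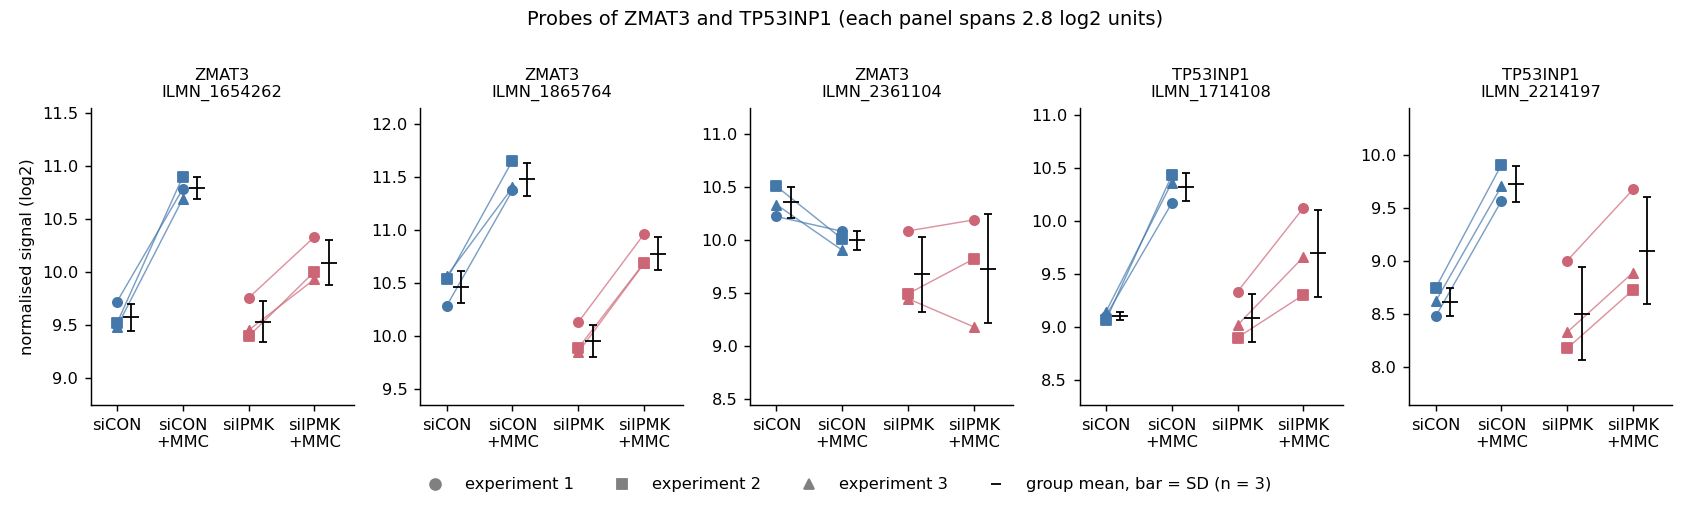
Normalised log2 signal of the 3 ZMAT3 probes and the 2 TP53INP1 probes on the 12 arrays, drawn as in the plot of the 8 genes. In siCON cells ILMN_2361104 goes from 10.35 to 9.999 with MMC, while the other 4 probes rise.

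The 2 probes of TP53INP1 moved together. The second, ILMN_2214197, read 8.48, 8.75 and 8.62 in untreated siCON cells and 9.57, 9.91 and 9.70 with MMC, and 9.003, 8.18 and 8.33, then 9.67, 8.73 and 8.89, in siIPMK cells. It rose by 1.11 ± 0.23 in siCON cells (adjusted p = 0.0203) and was lower by 0.63 ± 0.23 with siIPMK and MMC (adjusted p = 0.0447), with overlap. The difference of its MMC changes, -0.52 ± 0.14, did not pass in the paired fit (adjusted p = 0.0987), nor did that of the first probe over all probes (adjusted p = 0.0514).

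Paralogs of the 8 genes served as a comparison, and 15 of 17 were measured, with SESN2 and MDM4 standing in other lists here too. With MMC in siCON cells 1 of the 15 rose, SESN2, by 1.10 ± 0.20 (adjusted p = 0.00753), and none fell. Over all genes 1.96% rose and 0.106% fell. SESN2 is a second stress-inducible sestrin and itself a p53 target. SESN3, the sestrin under FOXO control, changed by -0.39 ± 0.17 (adjusted p = 0.394) and RPS27, the ribosomal protein that RPS27L resembles, by 0.10 ± 0.06 (adjusted p = 0.641). CCNG2, MDM4 and PHLDA1 changed by -0.04, 0.03 and 0.29 and did not pass.

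With siIPMK, 20.4% of all genes were higher and 19.9% lower in untreated cells, and 20.8% and 20.4% with MMC. Whether the counts of paralogs differ from these shares was not tested. In untreated cells 4 of the 15 were higher, among them CCNG2 by 1.10 ± 0.13 (adjusted p = 4.80e-05), SESN2 by 0.87 ± 0.20 and PHLDA1 by 0.73 ± 0.16, and 3 were lower, PPM1F by 1.06 ± 0.13, MDM4 by 0.88 ± 0.26 and ZMAT2 by 0.32 ± 0.09. The fourth rise was that of PPM1B, by 0.54 ± 0.12. With MMC in both arms 5 were higher, with SESN3 (1.00 ± 0.17, adjusted p = 5.29e-04) in addition, and 4 were lower, with ZMAT5 in addition. RPS27 changed by 0.04 ± 0.06 and -0.05 ± 0.06. The remaining paralogs, PPM1A, PPM1G, ILKAP, CCNI and TP53INP2, passed in no comparison.

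Other p53 targets gave the wider setting, with 29 of 35 measured. With MMC in siCON cells 17 rose and 0 fell, or 25 and 0 in the paired fit, with a median of 0.99. Over all genes 1.96% rose, or 6.17% in the paired fit. The largest changes of these targets were those of GDF15, a secreted stress cytokine, by 2.63, CDKN1A, the cell cycle inhibitor p21, by 1.97, and PMAIP1, the death protein NOXA, by 1.82. The smallest were PLK3 (-0.02), EPHA2 (0.05) and FUCA1 (0.33), which did not pass without pairing. In the paired fit FUCA1 rose (adjusted p = 0.0356) and the others did not pass. In siIPMK cells 8 of the 29 rose and 0 fell, or 16 and 0 in the paired fit, with a median of 0.48. There 0.351% of all genes rose, or 1.96% in the paired fit.

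Depletion without MMC put 21 of these 29 targets higher and 1 lower, where 20.4% and 19.9% of all genes were, with a median of 0.66. With MMC in both arms 12 were higher and 5 lower, where 20.8% and 20.4% of all genes were, with a median of 0.34. The 8 feedback genes had 0 higher and 4 lower. The difference between these lists was not tested. For the difference of the MMC changes the median was -0.39, and 0 passed without pairing. In the paired fit 7 were lower, where 0.521% of all genes were. Among the 7 were CDKN1A at -1.04 ± 0.13, GDF15 at -1.08 ± 0.16 and BAX, a pore-forming death protein, at -0.77 ± 0.11.

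Of 29 genes for p53's regulators 23 were measured. With MMC in siCON cells 0 passed without pairing and 1, the checkpoint kinase CHEK2, in the paired fit (0.39 ± 0.10, adjusted p = 0.0111). Over all genes 1.96% rose without pairing and 6.17% in the paired fit. In untreated cells depletion put 1 of the 23 higher, the acetyltransferase CREBBP, and 6 lower. Over all genes 20.4% were higher and 19.9% lower. Among the 6 that were lower were the checkpoint kinases CHEK1 (by 0.63 ± 0.14) and CHEK2 (by 0.67 ± 0.21) and the p53 inhibitor MDM4. With MMC 2 were higher and 7 lower, where 20.8% and 20.4% of all genes were. Whether these counts differ from the shares of all genes was not tested.

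Of 33 partners of the feedback proteins and genes of the pathways they restrain, 29 were measured. With siIPMK 6 were higher and 6 lower both without and with MMC, shares close to those of all genes (20.4% and 19.9%, and 20.8% and 20.4% with MMC). RRAGA, a Rag GTPase that recruits mTORC1 to the lysosome, was lower by 1.23 ± 0.22 and 1.34 ± 0.22. MAP1LC3B, an autophagy protein of the pathway TP53INP1 acts in, was higher by 0.98 ± 0.12 and 0.57 ± 0.12. With MMC in siCON cells 1 passed without pairing, the GATOR2 subunit WDR24, lower by 1.14 ± 0.22, where 0.106% of all genes were lower. In the paired fit 2 were higher and 3 lower, where 6.17% and 3.92% of all genes were.

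By the Euclidean distance over the 3 log2 changes from untreated siCON cells, the genes nearest to the median profile of the 8 were PDLIM1 (0.0493), FAM210B (0.0497), DENND6B (0.157), XPC (0.171) and CATIP (0.181), among 9401 genes. That median profile was 1.23 for siCON with MMC, 0.40 for siIPMK and 0.89 for siIPMK with MMC. PDLIM1, a LIM domain protein, had 1.22, 0.39 and 0.93, and XPC, a DNA damage sensor of excision repair and itself a p53 target, had 1.13, 0.44 and 0.75. The 3 changes share their control arrays.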

How the data were processed

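Cytoplasmic RNA of Cal51 cells was measured on 12 Illumina bead arrays. Per the file headers, the deposited bead table gives a mean intensity, a detection p-value and a count of beads per probe and array for 48802 probes (8 to 39 beads, median 22, for the probes described here). The authors' table of 14853 probes is on a log2-like scale; the submitters' processing notes name lumi, and its transform and settings are not given in the sources used here. A deposited spread between beads was not used.

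From the intensities, limma 3.58.1 in R 4.3.3 gave normalised values (neqc with background parameters from the detection p-values, an offset of 16, quantile normalization, log2). A probe stayed in if 3 or more arrays gave it a detection p under 0.01 (13830 probes), the brightest probe stood for its gene (9409 genes), and 1 model of 4 group means with a variance trend was fitted to all 12 arrays. Calls used an adjusted p under 0.05. The steps were tested on simulated data.

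A bound on a fold sets the mean of a detected group against the lowest signal well above background on each array of the other. Same-numbered arrays deviated together within each siRNA (correlations of 0.486, 0.193 and 0.419 for siCON and 0.704, 0.545 and 0.346 for siIPMK) and less so across siRNAs (-0.02 to 0.208), so the block of siRNA and experiment was used for the MMC comparisons. Alternatives covered scaling, background, filter, probe choice, array weights, pairing and leaving out arrays. Named genes were the 8 with all their probes, their measured paralogs, the 5 nearest genes, and the 3 largest and 3 smallest changes among other p53 targets with MMC in siCON cells; members named from the other lists were chosen after their values were seen. The genes and lists were chosen with earlier results of these data known. Arrays carry no read depth, and their number limits the precision. Figures were drawn with matplotlib 3.10.9, and promoter windows were read with Python 3.11.15.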

Additional observations from a re-analysis of the deposited data

Results flagged for a closer look

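The MMC change differed between the siRNAs for 4 of the 8 feedback genes in the paired fit, by limma's test of the difference itself, where 0.521% of all genes were lower. The values, siIPMK minus siCON, were -0.98 for PHLDA3 (adjusted p = 4.85e-04), -0.81 for SESN1 (adjusted p = 0.00210), -0.64 for RPS27L (adjusted p = 0.00210) and -0.61 for TP53INP1 (adjusted p = 0.0370). For SESN1 and RPS27L no difference between the siRNAs was detectable with MMC, and the untreated siIPMK level was higher by 0.86 and 0.63. An effect of signal saturation on the bright RPS27L probe was not tested. The fit without pairing put none of the 4 under the threshold. For each of the 4 the 3 siIPMK pairs lay below the 3 siCON pairs, as also for PPM1D, which did not pass. These are the values that the test used, and the share of all genes with such a separation was not worked out. The siIPMK arrays of experiment 1 lie closer to the controls than those of the other experiments on the first component. Without them, an alternative chosen after seeing the data, the paired differences were -1.13, -0.90, -0.77 and -0.69. The call of TP53INP1 was less firm than the others. In the paired fit it was lost with median scaling (adjusted p = 0.172). It was also lost without siCON pair 1, 2 or 3 or siIPMK pair 2 or 3 (adjusted p = 0.0531 to 0.215). Its second probe did not pass in the paired fit of all probes (adjusted p = 0.0987).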

How the results depend on the processing

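Of 1163 values of single genes under alternatives, 1028 kept their direction and side of the threshold, 54 lost a call, 67 gained one and 14 changed sign, none of these called. Of 21 called changes 9 passed under each alternative that gave a value, apart from the added ones named below. The number of the 8 genes called was 6 with depletion alone (3 to 7 leaving out 1 array, 3 without siCON experiment 2 or siIPMK experiment 3) and 4 with depletion and MMC (2 to 4, 2 without siIPMK experiment 2, 1 with median scaling and 5 with array weights). It was 7 with MMC in siCON cells (6 to 8) and 4 in siIPMK cells (0 to 4). In siIPMK cells it was 0 with median scaling or with only those arrays in the fit, 2 without both arrays of experiment 1, and the cause was not tested. For the difference it was 0 (0 to 2 leaving out 1 array), 3 with array weights, 4 with the replicate block of siRNA and experiment, and 2 without both siIPMK arrays of experiment 1. With that block it was 6 without those arrays, 3 without any other pair or with median scaling, and 4 in the authors' values, alternatives chosen after seeing the data. The changes of sign were CCNG1 with MMC in siIPMK cells (-0.13 to 0.42 leaving out 1 array), TP53INP1 with depletion (0.14 with median scaling, -0.15 to 0.0712 leaving out 1 array, 0.01 without siIPMK experiment 3), RPS27L with depletion and MMC (-0.0685 to 0.0246 leaving out 1 array) and RPS27L with MMC in siIPMK cells (-0.018 with median scaling without or with the block, -0.0834 with array weights, -0.0414 to 0.091 leaving out 1 array, and -0.10 without both arrays of experiment 1, also with the block). The signal over background limits MDM2, whose change in siCON cells was 0.38 to 1.30 across processing choices.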
